A study of Mus musculus with 2 samples.

Results

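The response of control mouse embryonic fibroblasts (MEFs) to 1 h of serum was read gene by gene from 1 dual-color Agilent array. The members were the genes with a symbol whose probe the scanner software called well above background in both channels. Of 28135 genes with a symbol on the array, 17727 (63.0%) met this rule. The remaining 10408 genes were well above background in 1 channel or in neither.

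The cells were an immortalized MEF line of the genotype Rosa26ERT2 Cre: THOC5 (flox/flox) on the background C57BL/6 x B6:129 Ola. In this line a Cre recombinase made from the Rosa26 locus can be switched on by tamoxifen, which then removes THOC5, a subunit of the THO complex that couples transcription to mRNA export. The control cells carried the same alleles and received no tamoxifen, so THOC5 was retained, and the labels call them wildtype. They were starved of serum, and RNA of unstimulated cells was labelled with Cy3 (green) and RNA of cells given fetal calf serum for 1 h with Cy5 (red). The series holds 1 further array, of the same line after 2 days of tamoxifen with and without 1 h of serum, which is used here only for comparison.

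Fibroblasts without serum leave the cell cycle and enter quiescence. Growth factors and lipids in serum activate the MAP kinase cascade and other signals, which act on transcription factors already present in the cell. The genes that respond without new protein synthesis are called immediate early genes. They encode transcription factors, secreted signals and the inhibitors that switch the signal off again.

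There was 1 array and no array with exchanged dyes, so no p-value or error between cultures can be given. A preference of a probe for 1 dye cannot be told apart from an effect of serum. The ratio is the Cy5 over the Cy3 processed signal of the same probe, given as log2. In what follows a gene is said to rise or fall where this ratio reached 1.5-fold. Spots of 1 hybridisation give only part of the technical error: among 235 genes read by 8 or more spots, spots of the same probe differed in log2 ratio with a median SD of 0.027 and a highest SD of 0.31. Different probes of a gene differed more, with an SD of the difference of 0.34 over 3893 genes. No spot was saturated. The median processed signal of the members was 755 in Cy3 and 749 in Cy5.

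Markers of fibroblasts were well above background for 13 of 13 genes of the list, with Cy3 signals from 36.2 to 105420 and a median of 25792. Their summed signal was 500054 in Cy3 and 454882 in Cy5. Epithelial markers were measured for 6 of 8 genes, with a Cy3 median of 35.3 and summed signals of 320 in Cy3 and 387 in Cy5. Endothelial markers were measured for 4 of 6 genes, with a Cy3 median of 30.1 and a range up to 902 (Kdr). Skeletal muscle markers (2 of 6 measured) had a median of 11.1 and a range up to 55.1, and pluripotency markers (2 of 5) 6.60 and up to 201. Neural and glial markers (4 of 6) had a median of 125 and a range up to 6919. Of 9 macrophage and leukocyte markers 4 were measured. Among these Itgam, an integrin of myeloid cells, read 6314 in Cy3 and 8178 in Cy5 on the brightest of its 3 probes, and the 3 probes gave log2 ratios from 0.05 to 0.58. The part of other cells in the results was not tested.

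Most genes stayed close to their unstimulated level. The log2 ratio had a median of -0.02 and an SD across genes of 0.47, with the middle 50% of genes between -0.21 and 0.18. Between 1.5-fold lower and 1.5-fold higher lay 15658 genes (88.3%). The range was wide and not symmetric: the highest ratio was 52.2-fold and the lowest, of Zfp273, was 10.8-fold lower. The log2 ratio of Zfp273 was -3.44, and it moved to -1.85 with a floor of 50 on the signal and to -1.92 with normexp and loess.

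After serum 1108 genes (6.25% of the members) were 1.5-fold or more higher and 961 genes (5.42%) were 1.5-fold or more lower. At 2-fold the counts were 415 genes higher (2.34%) and 268 lower (1.51%). At 4-fold they were 116 higher (0.654%) and 19 lower (0.107%). How these counts divide between the directions depends on the scaling, which centres the ratios near 0: at 1.5-fold, 13887 genes were higher and 104 lower without dye normalization, and 848 higher and 569 lower with normexp and loess. Fallers at 2- and 4-fold numbered 126 and 4 with normexp and loess, and 74 and 1 with both channels above 200. Most of the response in both directions lay below 4-fold, with 992 of the risers (89.5%) and 942 of the fallers (98.0%) between 1.5- and 4-fold. At the edge of 4-fold, Apobec1 was just inside with 4.001-fold and Spry2 just outside with 3.996-fold. At 1.5-fold the edge lay between Gm11567 (1.50001) and Ccdc62 (1.49995) for risers, and between Rusf1 (1.5002) and Hars2 (1.499) for fallers.

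**Figure D1:**
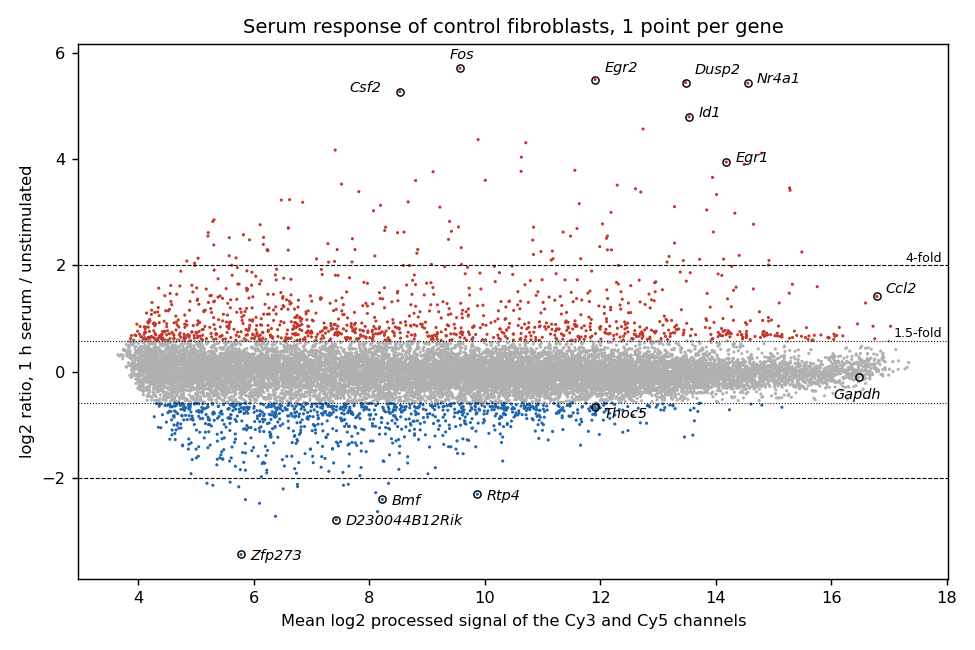
Log2 ratio of 1 h serum over unstimulated for each of the 17727 genes (vertical axis) against the mean log2 processed signal of both channels (horizontal axis). Red points are 1.5-fold or more higher, blue points 1.5-fold or more lower, and the dashed lines mark 4-fold. Risers are seen over the full range of signal, while few blue points lie at high signal and Gapdh lies near 0 at -0.10.

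The share of fallers varied with signal and was not highest among the dimmest genes. Among the 2870 genes with a mean signal up to 50, 211 (7.35%) were 1.5-fold higher and 180 (6.27%) lower. Among the 3970 genes with a mean signal above 5000, 223 (5.62%) were higher and 35 (0.88%) lower. Among the 2998 genes between 50 and 200, 254 (8.47%) were higher and 300 (10.01%) lower, and between 200 and 1000 the shares were 6.00% and 7.11%. The median signal of the genes 2-fold or more lower was 222 in Cy3 and 82.9 in Cy5, against 285 and 2161 for the genes 4-fold or more higher. The part of background estimation in the ratios of dim genes was not tested. The 157 measured olfactory receptor genes, which serve smell in sensory neurons, had a median mean signal of 31.9 and a median log2 ratio of 0.18, and 9 of them (5.73%) were 1.5-fold higher and 0 lower.

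The 10 highest members were of several kinds. Fos, a subunit of the AP-1 transcription factor, had the highest ratio, with a Cy3 signal of 105 and a Cy5 signal of 5495. Its log2 ratio was 5.71 with an SD of 0.07 between 10 spots. Its probe lies on chromosome 12 of mm9, from 86817900 to 86817959. Egr2, a zinc-finger factor, went from 574 to 25851 (log2 ratio 5.49). Dusp2, a phosphatase that inactivates MAP kinases in the nucleus, went from 1732 to 75051 (5.44). Nr4a1, an orphan nuclear receptor, went from 3670 to 157830 (5.43). These 4 genes were the members with ratios above 40-fold.

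Csf2, the cytokine GM-CSF, followed with signals of 59.6 and 2295 and a log2 ratio of 5.27 (SD 0.09 between 9 spots). Id1, an inhibitor of helix-loop-helix factors and a target of BMP signalling, went from 2259 to 62644 (4.79). Arc, best known as an activity-induced gene of neurons, went from 1406 to 33258 (4.56). These 3 genes differ in function, and none of them is an AP-1 or Egr factor. Serpinb2, an inhibitor of plasminogen activators, reached 4.36 (208 to 4291) and Fosb, another AP-1 subunit, 4.31 (377 to 7455). The predicted gene LOC402769 reached 4.17 (40.2 to 722). Egr1, the founding member of its family, had a log2 ratio of 3.94, from 4742 to 72874.

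The fallers with the lowest ratios were of other kinds. Zfp273, a zinc-finger gene on chromosome 13 of mm9 (67927687 to 67927746), had the lowest ratio of all members, with 181 in Cy3 and 16.7 in Cy5 (log2 ratio -3.44). The uncharacterised D230044B12Rik went from 452 to 65.7 (-2.78) and 2610008E11Rik from 703 to 114 (-2.63). Ccny, a cyclin that acts at the plasma membrane, went from 213 to 32.4 (-2.72). Zfp953 and Zfp763 reached -2.47 and -2.40 at Cy5 signals of 29.1 and 25.2. With a floor of 50 the ratios of Ccny, Zfp953 and Zfp763 were -2.09, -1.69 and -1.42.

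Bmf, a BH3-only protein that promotes cell death, went from 689 to 130 (-2.40). Rtp4, an interferon-induced chaperone of receptors, went from 2082 to 422 (-2.30), and Mx2, an interferon-induced GTPase, from 196 to 42.5 (-2.20). With normexp and loess Mx2 had -1.60. Zfp467 was read by 4 member probes, which disagreed: the brightest gave -2.27 and the others reached up to -0.06. The other genes among the 10 lowest had 1 member probe each. Zinc-finger genes made up 4 of the 10 lowest and interferon-induced genes 2.

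**Figure D2:**
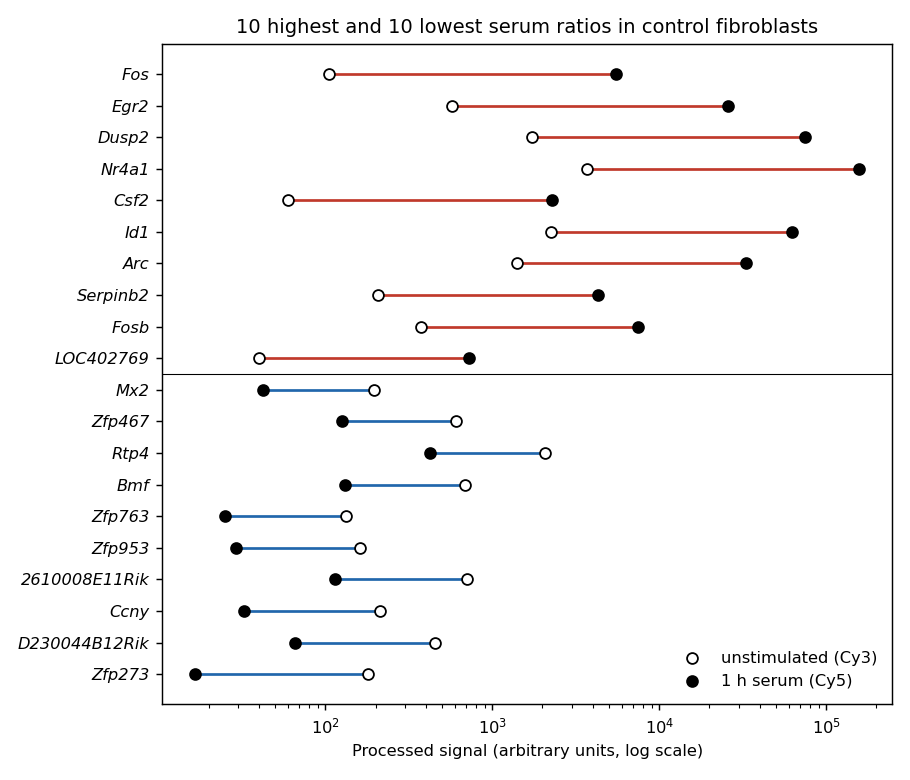
Processed signals (horizontal axis, arbitrary units, log scale) of the 10 genes with the highest and the 10 with the lowest serum ratio; open circles are unstimulated (Cy3) and filled circles 1 h serum (Cy5). The upper 10 genes start between 40.2 and 3670 without serum, and the lower 10 end between 16.7 and 422 after serum.

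Transcription factors and other early genes were described by list, and the counts of each list stand against 6.25% of all members higher and 5.42% lower. Of the 15 measured members of the list of Egr, Nr4a and other early genes, 12 rose, 9 of them by 4-fold or more, and 0 fell, with a median log2 ratio of 2.48. Besides Egr2, Nr4a1, Arc and Egr1, they included Csrnp1 (3.38), Ier3 (2.98) and Npas4 (2.72). Arc and the survival regulator Ier3 are not transcription factors. Egr3, Egr4 and Nr4a3 were not well above background in both channels. In the list of AP-1 and other bZIP factors 12 of 20 rose and 1 fell (median 1.17). Junb, a partner of Fos, rose from 296 to 3592 (3.60), Atf3, a stress-induced factor, from 1843 to 10800 (2.55), and Jun by a log2 ratio of 1.54, from 2597 to 7550. Jund, known for its constant expression, had a ratio of 0.17. Cebpd, a C/EBP factor, fell from 18792 to 8222 (-1.19) while Cebpb rose from 22818 to 44746 (0.97). The 2 C/EBP genes with strong signal therefore went in opposite directions.

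Of the Id, Hes and Hey helix-loop-helix genes, which mostly restrain differentiation, 6 of 11 measured rose and 1 fell (median 1.98). All 4 Id genes were among the risers, with log2 ratios of 4.79 (Id1), 3.00 (Id3), 2.07 (Id4) and 1.98 (Id2). Hes1, the Notch target and cyclic repressor, rose from 129 to 1553 (3.59), and Bhlhe40, a repressor tied to the clock, from 1218 to 7880 (2.69). Hes6, which counteracts Hes1, fell from 1631 to 1036 (-0.65). Of the 13 Kruppel-like factors measured, 6 rose and 0 fell. Klf10, a TGF-beta-induced factor, led them with 3405 and 29274 (8.60-fold), before Klf9 (2.02), Klf4 (1.65) and Klf6 (0.97).

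Related genes went in opposite directions in several other families. Myc, the growth-promoting factor, rose from 9968 to 39391 (1.98), whereas Mycn, its relative, fell from 268 to 77.2 (-1.80), and the other 8 measured genes of the Myc and Max network stayed within 1.5-fold. Snai1, a repressor of epithelial genes, rose from 1056 to 6519 (2.63), whereas Snai2 fell from 8661 to 5156 (-0.75). Without dye normalization Snai2 had 0.21, where the median of all members was 0.83. Trib1, a pseudokinase, rose from 1489 to 16944 (3.51) while Trib2 fell from 345 to 118 (-1.55). A further pair stood among the inhibitors of receptor signalling, where Spry4 (65.2 to 284, 2.12) and Spry1 (2274 to 710, -1.68) differed. Each of these pairs rests on 1 probe per gene, except Trib1, whose 2 probes gave 2.58 and 3.51.

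Tissue-patterning factors also responded. In the list of SOX, FOX and homeobox factors 9 of 29 rose and 3 fell. Foxc2, a mesenchymal forkhead factor, rose from 291 to 1920 (2.72), Dlx2 from 123 to 774 (2.66) and Sox9, the cartilage factor, from 856 to 3947 (2.20, SD 0.03 between 10 spots). Among the NFAT factors Nfatc2 rose from 228 to 706 (1.63), and Nfatc1 gave 0.82 on its brightest probe and 2.49 on the other.

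Inhibitors of the signal were mixed. Of 19 measured genes of MAP kinase feedback, 9 rose, 6 of them by 4-fold or more, 1 fell and 9 stayed within 1.5-fold (median 0.57). After Dusp2 came Errfi1, an inhibitor of the EGF receptor (6813 to 117573, 4.11), Dusp5 (99.1 to 867, 3.13) and Dusp4 (209 to 982, 2.23). In the list of TGF-beta and BMP feedback 11 of 23 rose and 1 fell (median 0.50). Smad7, the inhibitory Smad, rose from 393 to 6437 (4.03) and Skil, a repressor of Smad signalling, from 917 to 4399 (2.26, SD 0.03 between 10 spots). Inhba, the activin subunit, rose from 4316 to 23076 (2.42), and Fst, which binds activin, from 215 to 599 (1.48). The faller was Inhbb, another activin and inhibin subunit, from 797 to 483 (-0.72).

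Of 17 genes of mRNA decay 6 rose, 0 fell and 11 stayed within 1.5-fold (median 0.43). Noct, a circadian gene once classed as a deadenylase, rose from 6403 to 39578 (2.63), Btg2, which recruits deadenylases, from 2017 to 9874 (2.29), and Zfp36, which binds AU-rich elements, from 385 to 1558 (2.02). In the NF-kB list 6 of 15 rose and 0 fell. Rel went from 14.7 to 104 (2.82, and 1.06 with a floor of 50 on the signal), Tnfaip3, which edits ubiquitin chains in this pathway, from 1851 to 10542 (2.51), Nfkbiz from 208 to 830 (2.00) and Nfkbia, the inhibitor that holds NF-kB in the cytoplasm, from 14982 to 44112 (1.56). Rela, the constitutive subunit, had a ratio of 0.24.

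Of 19 inducible kinases and Trib genes 11 rose and 1 fell (median 0.75). Sgk1, a serum-induced kinase, rose from 10167 to 46333 (2.19), Pim1 from 74.0 to 281 (1.92) and Plk3 from 1707 to 5656 (1.73). Small GTPases were led by Gem (1049 to 5060, 2.27) and Arl5b (129 to 583, 2.18), with 7 of 22 higher and 1 lower. Ubiquitin ligases and adaptors held 11 risers and 1 faller among 23. Kctd11, an adaptor of Cul3 ligases, rose from 5955 to 88861 (3.90) and its 2 probes gave 3.70 and 3.90. Cul9 gave 3.23 on its brightest probe (2.45 with a floor of 50) but 0.49 on the other.

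Secreted signals were described in 3 lists. Of 22 measured cytokines and chemokines 13 rose, 7 of them by 4-fold or more, and 1 fell (median 1.22). Lif rose from 429 to 5847 (3.77) and Il11, a cytokine of the same receptor family, from 150 to 2027 (3.76). Cxcl2 went from 15.3 to 89.6 (2.55, and 0.84 with a floor of 50, which takes it out of the 4-fold count). Ccl2, the monocyte chemokine, had signals of 69234 and 184822 and a log2 ratio of 1.42 (SD 0.05 between 9 spots), so that a strongly measured gene with a moderate ratio stood beside them. Ccl5, an interferon-inducible chemokine, fell from 12158 to 7895 (-0.62).

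The EGF-family ligands divided cleanly. Ereg (1896 to 20600, 3.44), Areg (204 to 1748, 8.55-fold) and Hbegf (5118 to 42179, 3.04) each rose by over 8-fold, and the other 5 of 8 stayed within 1.5-fold, Nrg1 with 0.34 among them. Of 25 other growth factors 10 rose and 0 fell. They included Penk, an opioid precursor (275 to 1716, 2.64), Nppb, a natriuretic peptide (145 to 890, 2.61), Wnt11 (207 to 1017, 2.30) and Pdgfb (4412 to 19815, 2.17). Among the other PDGF genes Pdgfa had 2.12 (6484 to 28090), Pdgfc -0.19 and Pdgfd -0.15, and Pdgfra, a receptor for PDGF, fell from 1269 to 608 (-1.06, SD 0.02 between 10 spots).

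Genes of the plasminogen system, coagulation and the matrix rose in 15 of 33 cases and fell in 0 (median 0.16). F3, tissue factor, rose from 5210 to 52468 (3.33) and Has1, a hyaluronan synthase, from 717 to 4720 (2.72). Of 17 measured CCN and YAP targets 6 rose and 2 fell (median 0.32). The risers included Ccn2 (12252 to 130374, 3.41), Ccn1 (9858 to 67382, 2.77) and Ankrd1 (23219 to 72568, 1.64). In the same list Ccn5 fell from 588 to 299 (-0.97). Of 16 measured lipid mediator genes 3 rose and 2 fell (median -0.14). Ptgs2, the inducible cyclooxygenase, rose from 813 to 11222 (3.79, SD 0.03 between 8 spots), Sphk1, which makes sphingosine-1-phosphate, from 2115 to 10352 (2.29), and the receptor S1pr1 fell from 102 to 58.5 (-0.80).

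Of 35 genes of the SRF and actin list 5 rose (14.3%, against 6.25% of all members) and 0 fell, and the median was 0.14. Itga5, a fibronectin receptor subunit, was the only one past 2-fold (1551 to 6767, 2.13). Actg1 reached 0.86 with 5 probes between 0.57 and 1.00, Cnn1 0.72 and Mical2 0.69. Actb, often used as a reference gene, had 0.58, just under 1.5-fold, and Acta2 had -0.15. Probes of Actg1 and of its copy Actg-ps1 may share transcripts, so these 2 are not independent.

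**Figure D3:**
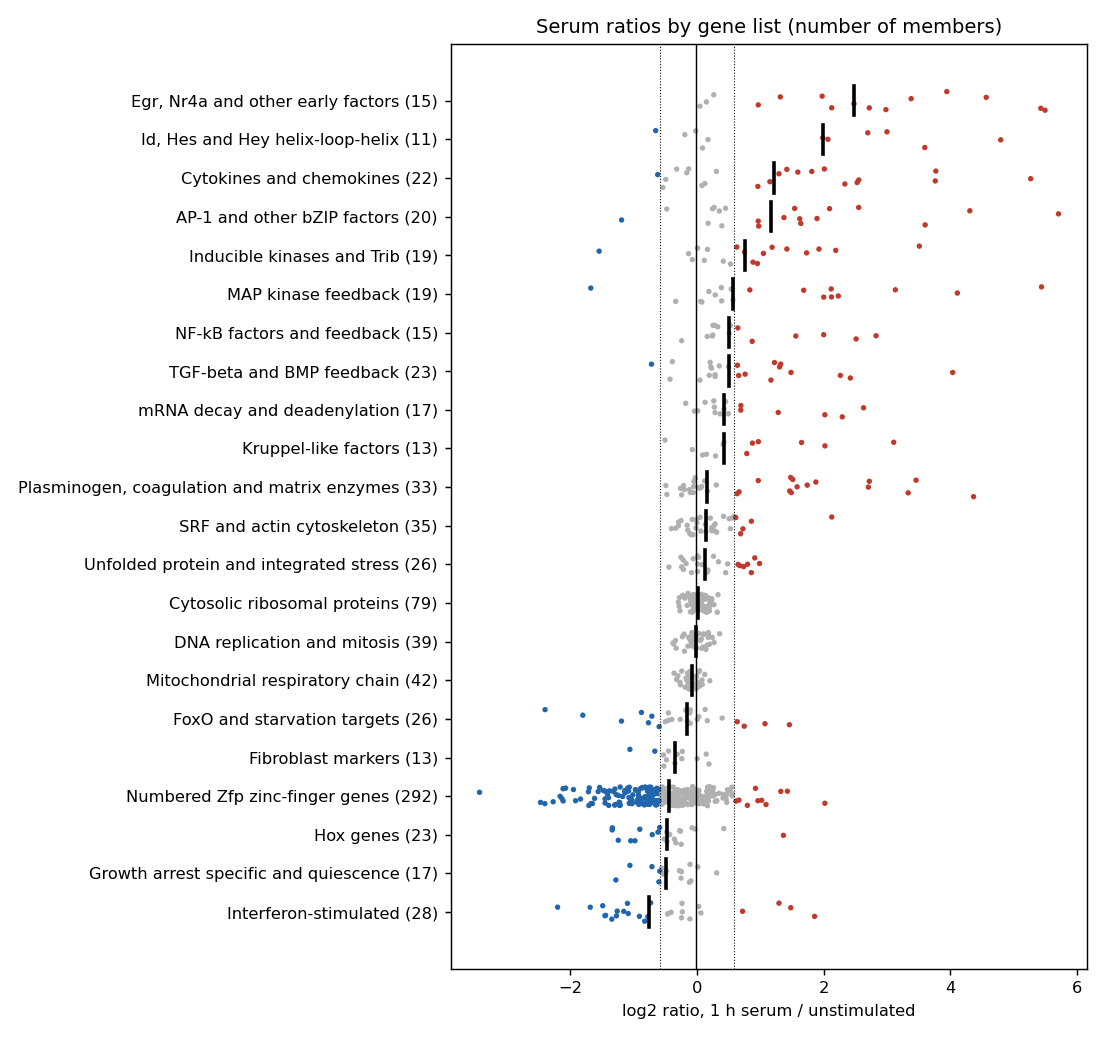
Log2 ratio (horizontal axis) of each measured gene of 22 lists, with the number of members in parentheses and the list median as a black bar; red points are 1.5-fold or more higher, blue 1.5-fold or more lower, and the solid line is the median of all members (-0.02). Early factors lie to the right with a median of 2.48, ribosomal and respiratory genes lie near 0, and the interferon-stimulated list lies to the left with a median of -0.76.

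Promoter sequences were inspected because members that rise together often share binding sites of factors that serum activates. Windows of 300 bases, from 250 before to 50 after a start site, were taken from RefSeq (GRCm38.p6), and 73 of the 116 genes 4-fold or more higher had one. The CArG box (CC, 6 bases of A or T, GG), which SRF binds, was in the windows of 3 of these 73 genes (4.11%), Egr2, Dusp5 and Zfp36. It was in 1.81% of all 27025 genes with a window and in 1.65% of the 10177 members within 1.5-fold that had one. TGACGTCA, the site of CREB and ATF factors, was found in 7 of 73 (9.59%), against 2.03% of all genes and 3.18% of members within 1.5-fold. It was not particular to risers, since it was in 3.19% of the genes 2- to 4-fold higher, 6.79% of those 2- to 4-fold lower and 1 of 10 of those 4-fold or more lower. For TGACTCA, the AP-1 site, the shares were 12.3%, 5.95% and 4.79%, and for the kappaB consensus, the site of NF-kB, 15.1%, 6.55% and 8.12%. The kappaB consensus was also in 12.2% of the genes 1.5- to 2-fold higher, 8.51% of those 2- to 4-fold higher and 2 of 10 of those 4-fold or more lower. TATAAA was found in 17 of 73 (23.3%), against 15.7% and 10.3%. Both strands were searched, and a CArG box can contain TATAAA.

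These shares are descriptions, and a gene with several windows had more chance to hold a match. The mean was 1.42 windows per gene among the 73 and 1.22 among all. The promoters of 5 risers follow as 150 bases that end just before the start site, to show where sites lie. Capitals mark the CArG box in Dusp5 and Zfp36, TGACGTCA in Areg and the kappaB match in Nfkbia and Cxcl1, and the TATAAA that Areg also holds is in lower case.
Dusp5: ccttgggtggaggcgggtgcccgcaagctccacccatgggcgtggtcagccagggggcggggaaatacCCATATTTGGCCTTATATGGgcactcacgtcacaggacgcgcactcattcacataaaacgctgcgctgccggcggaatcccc
Zfp36: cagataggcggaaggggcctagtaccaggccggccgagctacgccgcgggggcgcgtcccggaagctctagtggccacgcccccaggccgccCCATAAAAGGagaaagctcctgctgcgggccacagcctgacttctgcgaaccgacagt
Areg: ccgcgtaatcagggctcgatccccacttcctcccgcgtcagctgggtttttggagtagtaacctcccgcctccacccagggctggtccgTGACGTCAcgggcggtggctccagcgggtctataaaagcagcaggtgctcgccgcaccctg
Nfkbia: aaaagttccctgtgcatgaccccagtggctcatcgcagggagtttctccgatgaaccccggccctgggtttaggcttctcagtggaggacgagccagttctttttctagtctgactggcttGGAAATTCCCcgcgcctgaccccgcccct
Cxcl1: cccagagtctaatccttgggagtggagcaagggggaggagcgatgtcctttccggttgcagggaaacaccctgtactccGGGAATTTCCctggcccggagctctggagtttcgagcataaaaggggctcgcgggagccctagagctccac
The Dusp5 window (chr19:53528995-53529144, plus strand) holds 2 CArG boxes end to end, which start 82 and 72 bases before the start site. In Zfp36 (chr7:28379229-28379378, minus strand) a single CArG box starts 58 bases before it. TGACGTCA in Areg (chr5:91139449-91139598, plus strand) starts 61 bases before the start site. The kappaB matches in Nfkbia (chr12:55492648-55492797, minus strand) and Cxcl1 (chr5:90891095-90891244, plus strand) start 29 and 71 bases before it. On the log2 scale the serum ratio was 3.13 for Dusp5, 2.02 for Zfp36, 1.56 for Nfkbia and 2.01 for Cxcl1, a chemokine of neutrophils.

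Gene length differed between the groups, without a test. The median gene length in RefSeq was 8.83 kb for the genes 4-fold or more higher, 13.0 kb for those 2- to 4-fold higher and 18.7 kb for those 1.5- to 2-fold higher. Genes within 1.5-fold had a median of 18.6 kb, and all genes with a promoter window had 13.0 kb. Fallers had 13.5 kb at 1.5- to 2-fold, 11.2 kb at 2- to 4-fold and 16.5 kb at 4-fold or more.

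In the lists of stress and metabolic genes most members stayed within 1.5-fold. Their counts again stand against 6.25% of all members higher and 5.42% lower. Of the 26 genes of the unfolded protein and integrated stress response, 7 rose and 0 fell, none by 2-fold. Ppp1r15a, which restores translation by dephosphorylating eIF2, went from 6407 to 12684 (0.99), Chac1 from 8430 to 15839 (0.91), Atf4, the central factor of this pathway, from 99179 to 179459 (0.86) and Dnajb9 from 486 to 844 (0.80). Of 18 Nrf2 targets 4 rose and 0 fell, with Hmox1, heme oxygenase, at 1.70 (6370 to 20749) and Srxn1 at 1.53 (11908 to 34465). Of 20 heat shock genes 3 rose and 17 stayed within 1.5-fold: Dnajb1 passed 4-fold (14999 to 64015, 2.09), while Hspb1 reached 0.60 and Dnajb4 0.59.

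In the cholesterol list 6 of 29 rose and 2 fell. Insig1, which retains the SREBP factors, rose from 649 to 1546 (1.25). The exporters Abcg1 (837 to 480, -0.80) and Abca1 (1212 to 708, -0.78) fell. In the glycolysis and hypoxia list 3 of 32 rose (9.38%, against 6.25% of all members) and 0 fell. The 3 were Vegfa, the angiogenic factor (4467 to 18669, 2.06), Slc2a1, the glucose transporter Glut1 (12637 to 25283, 1.00), and Hk2, a hexokinase (5161 to 8469, 0.71). The enzymes of glycolysis below them stayed within 1.5-fold, such as Gapdh (94341 to 87891, -0.10, with 7 probes between -0.26 and -0.04).

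Of 20 clock genes 6 rose, 1 fell and 13 stayed within 1.5-fold, with Bhlhe40 past 4-fold, Nfil3 at 1.62, Nr1d1 at 1.39 and Per1, the clock gene that serum is known to induce, at 1.11 (3914 to 8440). In the Bcl2 family Pmaip1 (91.0 to 320, 1.81), Bcl2l11 (48.9 to 134, 1.46) and Mcl1 (10308 to 20568, 1.00) rose, Bmf fell and the other 10 of 14 stayed within 1.5-fold. Kdm6b, an H3K27 demethylase, rose from 1098 to 4706 (2.10, 2 probes at 2.10 and 2.11). Of the 24 mRNA processing factors 2 rose (8.33%, against 6.25% of all members) and 1 fell (4.17%, against 5.42%): Pcf11, a termination factor, went from 63.7 to 154 (1.27), Cstf3 from 4809 to 7414 (0.62, with 0.29 on the other probe), and Thoc5 itself from 4808 to 3047 (-0.66). The probe of Thoc5 lies on chromosome 11 of mm9 from 4828807 to 4828866.

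Ranked by their Cy5 signal, the first 10 genes between 1.5- and 4-fold higher included Ccl2, Atf4, Actg1, Tuba1c, an alpha-tubulin (63138 to 154577, 1.29), and Gadd45g, a stress sensor (31767 to 96266, 1.60). Dennd4a and Luc7l2 had 0.67 and 0.68 on the brightest of 3 probes but 0.10 and 0.17 on the lowest. Actg-ps1, Gm16385 (0.90) and LOC633219 (0.83) are predicted genes or copies whose probes may read other transcripts. The matching 10 fallers had log2 ratios from -0.92 to -0.59. Without dye normalization each of them lay above 0, from 0.00111 (Marcks) to 0.433 (Col3a1). There the median of all members was 0.83. Marcks, an actin-binding substrate of protein kinase C, went from 17443 to 9202 (-0.92), Pdlim2 from 17102 to 10192 (-0.75) and Cavin2, a caveolar protein, from 15505 to 9399 (-0.72). Arhgef25 (-0.71), Numa1 (-0.69), Col3a1 (-0.67), Scarf2 (-0.63), H2ac22 (-0.61), Efemp2 (-0.60) and Ifi27 (-0.59) made up the rest.

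Many fallers were Zfp genes with a number, most of which encode C2H2 zinc-finger proteins, many of them with a KRAB repressor domain. Of 292 measured, 122 fell (41.8%, against 5.42% of all members) and 10 rose (3.42%, against 6.25%), with a median log2 ratio of -0.44, which turned to 0.35 in signals without dye normalization, where the median of all members was 0.83. They were 1.65% of the members but 20.5% (55 of 268) of the genes 2-fold or more lower. The list goes by name, and its highest member, Zfp36, is not a protein of this type. Their median mean signal was 367, against 753 for all members. Among the 191 with a mean signal above 200 the median was -0.36, with 64 lower and 7 higher, where 4.06% of all such members were lower and the median was -0.04. Another probe was well above background for 44 of the fallers: 41 gave a ratio below 0 and 28 one that was 1.5-fold lower.

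Hox genes, which hold the positional identity of fibroblasts, also leaned downward. Of 23 measured, 10 fell (43.5%, against 5.42% of all members) and 1 rose (4.35%, against 6.25%), with a median of -0.48 (0.32 without dye normalization, again below the 0.83 of all members). Hoxa3 (370 to 146), Hoxb5 (345 to 136) and Hoxc5 (129 to 51.2) each had -1.34, and no Hoxd gene was well above background in both channels. Hoxb8, at 89.1 and 229 (1.36), was the exception. The median mean signal of the Hox genes was 293.

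Interferon-stimulated genes, which encode antiviral proteins, had the lowest median of the lists shown. Of 28 measured, 15 fell (53.6%, against 5.42% of all members), 11 of them by 2-fold or more, 4 rose (14.3%, against 6.25%), and the median log2 ratio was -0.76 (0.055 without dye normalization, against 0.83 for all members). After Mx2 came Usp18, which removes ISG15 from proteins (547 to 170, -1.69), and Ifit1, which binds foreign RNA (390 to 139, -1.49). Also lower were Oas1a (1608 to 721, -1.16), the factors Stat2 (2996 to 1397, -1.10) and Irf9 (3813 to 1794, -1.09), Bst2 (5081 to 2701, -0.91) and Isg15 (3859 to 2173, -0.83). The 4 risers were Cish (508 to 1839, 1.85), Socs1 (2115 to 5891, 1.48), Cxcl10 (3669 to 8985, 1.29) and Socs3 (5323 to 8750, 0.72). Cish, Socs1 and Socs3 are inhibitors of cytokine receptors and not antiviral proteins, and Irf1 (-0.11) and Rsad2 (0.06) stayed near 0.

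Interferon-induced genes outside the list were lower in some cases and near 0 in others, and those named here were chosen after their values were seen, so they are no support for the list. The immunity-related GTPases Irgm2 (302 to 82.4, -1.87), Igtp (540 to 213, -1.34), Tgtp2 (720 to 298, -1.27) and Irgm1 (1358 to 626, -1.12) were lower, as were Trim21 (207 to 55.1, -1.91), Xaf1 (1348 to 463, -1.54) and Parp14 (1692 to 792, -1.09). Within 1.5-fold on both of their probes were Cxcl11 (0.09), Isg20 (-0.03) and Ifi202b (-0.16). The probes of Ifi208 (0.17 and -1.28) and Gbp6 (-0.25 and -1.39) disagreed. Of the 12 listed fallers with a promoter window, 8 (66.7%) held the interferon-response motif GAAANNGAAA, against 3.99% of all genes with a window and 3.39% of members within 1.5-fold. Interferon-stimulated genes are known for this motif, and it was also in 6 of the 12 other members of the list with a window, so the share is in part fixed by the choice of the list. It was in 6.61% of all genes 1.5- to 2-fold lower and 9.26% of those 2- to 4-fold lower. These falling groups include listed genes such as Isg15 and Ifit1. Among risers the motif was in 3.39% of genes 1.5- to 2-fold higher, 5.85% of those 2- to 4-fold higher and 2.74% at 4-fold or more. The 3 promoters below show the position of the motif.
Ifit1: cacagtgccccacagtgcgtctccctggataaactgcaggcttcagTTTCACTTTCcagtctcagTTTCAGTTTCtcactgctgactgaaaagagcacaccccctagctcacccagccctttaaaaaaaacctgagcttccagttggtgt
Ifit3: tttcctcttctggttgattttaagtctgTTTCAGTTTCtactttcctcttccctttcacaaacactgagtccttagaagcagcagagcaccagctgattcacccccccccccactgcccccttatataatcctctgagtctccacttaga
Isg15: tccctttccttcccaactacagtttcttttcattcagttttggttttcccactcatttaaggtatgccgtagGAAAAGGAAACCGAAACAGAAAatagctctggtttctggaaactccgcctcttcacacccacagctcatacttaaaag
Capitals mark GAAANNGAAA or its reverse complement. Ifit1 (chr19:34640739-34640888, plus strand) holds 2 matches, which start 104 and 85 bases before the start site. Ifit3 (chr19:34583379-34583528, plus strand) holds 1, at 122 bases, and Isg15 (chr4:156200819-156200968, minus strand) holds 3 that overlap, between 78 and 66 bases before it. Ifit3 went from 1220 to 509 (-1.26).

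Genes tied to starvation and quiescence went both ways. Of 26 FoxO and starvation targets 7 fell (26.9%, against 5.42% of all members) and 4 rose (15.4%, against 6.25%; median -0.17). Txnip, which restrains glucose uptake, went from 1058 to 303 (-1.80, with -0.99 on the other probe), and Fbxo32, the ubiquitin ligase atrogin-1, from 667 to 291 (-1.19, SD 0.04 between 10 spots). Of 17 growth arrest specific genes 5 fell (29.4%, against 5.42% of all members) and 0 rose (against 6.25%). Their median was -0.48, and 0.46 without dye normalization, against 0.83 for all members. Gas1, named for its expression in arrested cells, went from 3420 to 1406 (-1.28), but its 3 probes ranged from -1.51 to -0.27. The cyclin-dependent kinase inhibitors diverged: Cdkn2b (17204 to 7348, -1.23) and Cdkn2c (1428 to 871, -0.71) fell, while Cdkn1a, the inhibitor p21, rose from 252 to 1789 (2.83, SD 0.17 between 10 spots).

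The fibroblast markers had a median of -0.35, with 2 of 13 lower, Pdgfra and Col3a1 (45649 to 28734). Col1a2 had -0.53 and Dcn -0.53, both short of 1.5-fold. Of 23 measured collagens 2 fell (8.70%) and 1 rose (4.35%), near the shares of all members (5.42% and 6.25%). Fewer cells of a type and less RNA per cell cannot be told apart in such bulk samples.

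Several lists of growth and division genes stayed near their unstimulated level at 1 h. That of G1 cyclins, E2F factors and CDK inhibitors had 1 riser (3.70%, against 6.25% of all members) and 3 fallers (11.1%, against 5.42%) of 27 (Cdkn1a 2.83, Cdkn2b -1.23, Cdkn2c -0.71 and E2f2 -0.71). Of the others, none of 39 genes of DNA replication and mitosis reached 1.5-fold in either direction, and their range was -0.38 (Mcm7) to 0.35 (Kif23). The same held for 42 genes of the mitochondrial respiratory chain (median -0.08), 79 cytosolic ribosomal proteins (median 0.02) and 76 mitochondrial ribosomal proteins (median -0.14). Of 37 proteasome subunits 1 fell, the interferon-induced Psmb8 (25.8 to 16.5, -0.65, with both signals under the floor of 50), and 0 rose. Of 14 reference genes 0 passed 1.5-fold.

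Among long non-coding RNAs of the RefSeq annotation 42 of 583 rose (7.20%) and 62 fell (10.6%), against 882 (6.38%) and 759 (5.49%) of 13823 protein-coding genes. Mir17hg, the host of the miR-17 cluster and a known Myc target, rose from 993 to 2491 (1.33) and Airn from 1007 to 1890 (0.91), although the 4 probes of Airn ranged down to 0.18. Snhg5 (310 to 169, -0.88) and Malat1 (1686 to 985, -0.78) fell. Of 1166 pseudogenes 36 were higher (3.09%) and 8 lower (0.69%), and the difference between these kinds of gene was not tested.

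Genes well above background in 1 channel yield a limit in place of a ratio. The dim channel was set to the probe's own signal or, if that was lower, to the least signal that any probe well above background had there (11.2 in Cy3, 14.0 in Cy5). With serum only, 220 genes were measured, of which 18 were at least 4-fold higher. Olr1, a receptor for oxidised LDL, was at least 11.6-fold higher (8.24 to 130), followed by 0610033M10Rik (at least 8.28-fold), Fgl2 (7.38), 5830462I19Rik (7.34) and Slc5a2 (5.73). Without serum only, 802 genes were measured, of which 9 were at least 4-fold lower. Hes5, a Notch target of the Hes family, was at least 17.2-fold lower (241 to 8.31), which is a larger change than that of Zfp273 among the members. Zfp85 (at least 7.56-fold), A430033K04Rik (6.43), AU015680 (5.97) and Zfp39 (5.92) followed. The share of zinc-finger genes among the 802 was not counted.

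Another probe of the same gene gives a check within the array. For 3893 genes with more than 1 member probe, the median absolute difference between the brightest probe and the next was 0.15 (log2), and 299 genes (7.68%) differed by 1.5-fold or more. Of 222 risers with another probe, 193 (86.9%) had the same direction on it and 124 (55.9%) were also 1.5-fold higher. Of 181 fallers, 161 (89.0%) had the same direction and 93 (51.4%) were also 1.5-fold lower. At 2-fold the other probe was also past the limit for 47 of 68 risers (69.1%) and 20 of 46 fallers (43.5%). Probes can read different transcript ends, so a disagreement need not be an error of measurement.

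**Figure D4:**
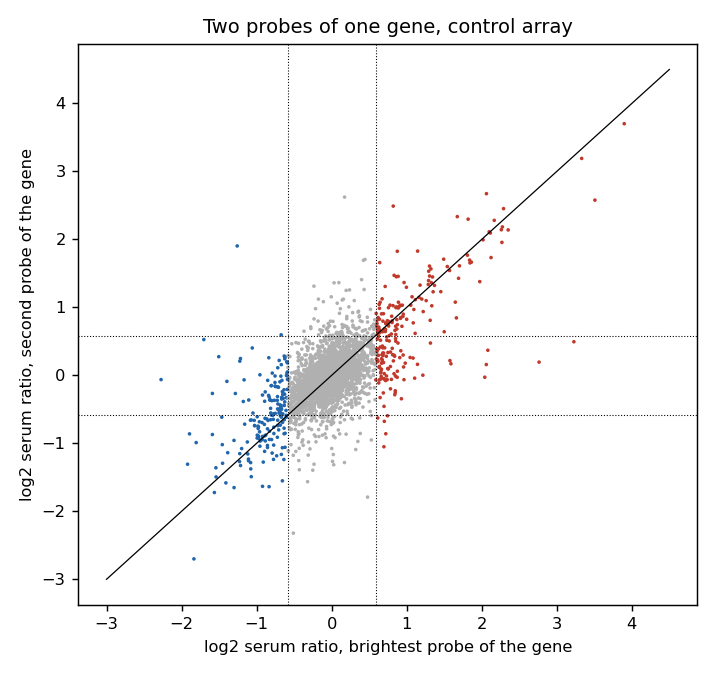
Log2 serum ratio of the brightest probe (horizontal axis) against that of the next brightest probe (vertical axis) for 3893 genes; the solid line is equality, dotted lines mark 1.5-fold, and colours follow the brightest probe. Most points lie near the line (median absolute difference 0.15), and of the 181 blue points 20 lie above 0 on the vertical axis.

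The same probes on the array of THOC5-depleted cells, hybridised with the same dye orientation, gave ratios of smaller size. Of the 17727 members 17166 were well above background on both arrays. For the 115 genes 4-fold or more higher in control cells, the median log2 ratio was 2.62 against 1.31 after depletion of THOC5, and 111 (96.5%) had the same direction. For the 661 genes 1.5- to 2-fold higher the medians were 0.73 and 0.34, with 583 (88.2%) in the same direction. For the 680 genes 1.5- to 2-fold lower they were -0.72 and -0.23 (575 genes, 84.6%), and for the 244 genes 2- to 4-fold lower -1.25 and -0.34 (230 genes, 94.3%). The bands were chosen on the control array, so a smaller value on the other array is in part built in. With 1 array per condition the difference was not tested, and tamoxifen, loss of THOC5 and the array cannot be told apart.

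At the level of single genes, Fos had 5.71 in control cells against 6.55 in depleted cells, and Egr1 had 3.94 and 3.97. Egr2 (5.49 and 4.62), Nr4a1 (5.43 and 4.43) and Id1 (4.79 and 2.59) were lower in depleted cells, and Serpinb2 had 4.36 and 1.16. Penk (2.64 and -0.07) and Wnt11 (2.30 and 0.13) had ratios near 0 there. Among the fallers Zfp273 had -3.44 and -1.22, and Bmf -2.40 and -0.00098. The 288 numbered Zfp genes measured on both arrays had medians of -0.46 and -0.13, the 23 Hox genes -0.48 and -0.19, and the 27 genes of the interferon list -0.78 and -0.14. Of these 27, 2 were 1.5-fold lower in depleted cells. Among all 17166 members measured on both arrays, 185 were 1.5-fold lower in depleted cells. In control cells 961 of the 17727 members were.

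**Figure D5:**
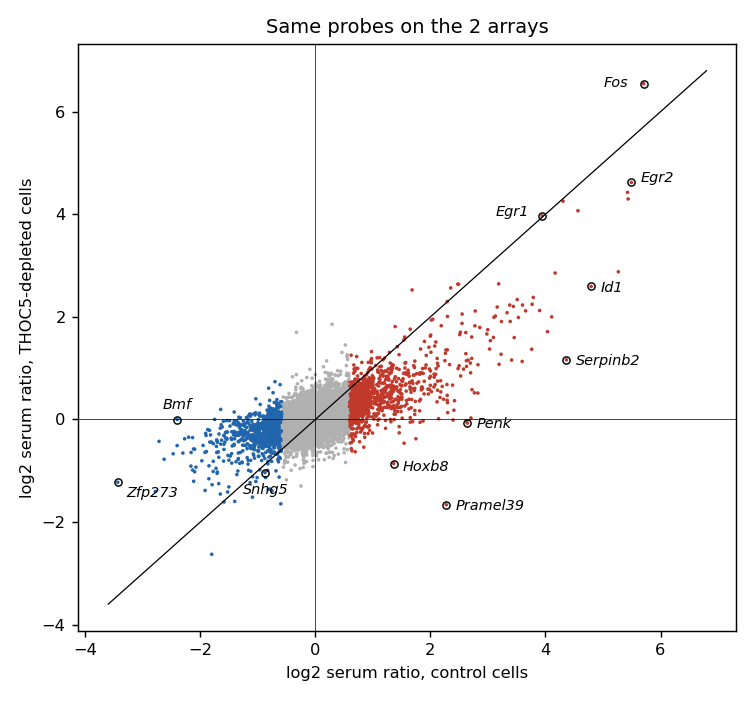
Log2 serum ratio in control cells (horizontal axis) against that of the same probe in THOC5-depleted cells (vertical axis) for the 17166 genes measured on both arrays; the diagonal is equality and colours follow the ratio in control cells. Most coloured points lie between the diagonal and 0, Fos lies above the diagonal (5.71 and 6.55), and Pramel39 and Hoxb8 lie in opposite directions.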

How the data were processed

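RNA was extracted with an RNeasy kit, amplified and labelled with Cy3 or Cy5, and read on 2 Agilent arrays, 1 per condition. The authors deposited the output of Agilent Feature Extraction 10.7.3.1, per the file headers, with probe positions on mm9. The deposited intensities are processed signals, which the software corrects for background and for dye within each array, and its log ratio, as deposited by the authors, is the log10 of Cy5 over Cy3. A deposited value table of the series held the size of this ratio without its sign and served only as an alternative. Columns not mapped to a sample numbered 0.

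Outlier spots (239) were left out and the spots of a probe averaged on the log2 scale. Probes were named in the RefSeq table by accession (26409 probes), then by symbol (4586), otherwise as in the file (4779). A gene was read by its brightest member probe, by the mean of both channels. Probes not above background in 1 channel gave bounds. With 1 array per condition no test was possible, and counts are of genes past 1.5-, 2- or 4-fold. Lists are described by counts and medians.

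The genes named were the 5 markers, the 10 highest and 10 lowest members, the 4 largest changes of each list, the 10 with the highest Cy5 signal between 1.5- and 4-fold in each direction, the 5 largest bounds in each direction, Thoc5 and Gapdh. Other genes named were chosen after their values were seen. The members and lists were chosen with earlier results of these data known. The kappaB, interferon-response and TATAAA motifs were added after results were seen. Alternatives were other background and dye corrections (limma 3.58.1 in R 4.3.3, normexp with an offset of 50 and loess), centring, signal filters of 200, a floor of 50, other rules for several probes, outlier spots kept and the value table. The procedure was tested on simulated data. Python 3.11.15 with numpy 2.4.6, pandas 2.3.3 and matplotlib 3.10.9 was used. Control spots were not analysed here. Some genes that the rule names are not reported here.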

Additional observations from a re-analysis of the deposited data

Results flagged for a closer look

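In 7 genes the serum ratio was 1.5-fold or more in opposite directions on the 2 arrays, a difference that was not tested, since each condition had 1 array. For Pramel39 the log2 ratio was 2.28 in control (34.5 to 167) but -1.66 in THOC5-depleted cells (99.3 to 31.4). Hoxb8 had 1.36 (89.1 to 229) and -0.86 (177 to 97.4). The other rising genes in control cells were Gm8556 (0.69 and -0.63) and LOC677576 (0.64 and -0.61), with signals of 33.1 or less in each channel. Podn (-0.61 and 0.68), Gm2753 (-0.70 and 0.74) and Rasgef1b (-0.81 and 0.61) were lower in control cells and higher in THOC5-depleted cells. Pramel39 was read by 2 member probes on the control array, which gave 2.18 and 2.28, and the other 6 by 1 each.

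Probes without a gene symbol were outside the members. Of 1577 such probes well above background in both channels, 2 were 4-fold or more higher and 2 were 4-fold or more lower after serum, with log2 ratios from -2.21 to 2.44.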

How the results depend on the processing

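Each count was recomputed under 11 alternatives and 1 added after seeing the data (all member probes of a gene past the fold). Without dye normalization the median log2 ratio of all members moved to 0.83, so that 13887, 5303 and 339 genes were higher and 104, 34 and 1 lower at 1.5-, 2- and 4-fold (13548 and 103 between 1.5- and 4-fold). Centring these signals returned every count to within 1.5 times. With normexp and loess the fallers numbered 569, 126 and 4, and 565 between 1.5- and 4-fold. The risers stayed within 1.5 times there. With the brighter channel above 200 there were 704 risers at 1.5-fold (608 between 1.5- and 4-fold) and 556, 142 and 11 fallers (545 in the range). With both channels above 200 there were 583, 213 and 66 risers (517) and 417, 74 and 1 fallers (416). These 2 filters test fewer genes (12118 and 11616). A floor of 50 left 11 fallers at 4-fold.

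Without dye normalization the median of the interferon-stimulated list turned to 0.0548. It also turned Notch4 (0.0846), Snai2 (0.211), S1pr1 (0.0336), Arrdc3 (0.0637), Cdkn2c (0.0449), Sfrp2 (0.212), Abca1 (0.0298), E2f2 (0.0884), Col14a1 (0.148), Col3a1 (0.433), Kdm2a (0.272), Thoc5 (0.218), Malat1 (0.0943), H2aw (0.0447), H2ac22 (0.351), Psmb8 (0.155), Scarf2 (0.412), Arhgef25 (0.275), Ifi27 (0.377), Efemp2 (0.348), Pdlim2 (0.229), Numa1 (0.218), Cavin2 (0.257) and Marcks (0.00111) above 0. All of these lie below the shift of 0.83 of the members as a whole. Among 243 named genes, 32 moved by more than 0.34 (log2) with normexp and loess and 17 with the floor of 50.

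No paired analysis was possible because there was 1 array per condition, and no replicate was there to leave out. The filter on both channels is in part decided by the fall itself, since a faller must keep its Cy5 signal above 200.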
